A study of Mus musculus with 6 samples.

Results

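The 28 genes described here encode enzymes of cholesterol synthesis, the proteins that control the pathway, and proteins that carry sterols within or out of the cell. They were taken as a list of gene symbols, and all 28 were found among the 23183 symbols of the count files and passed the filter on low counts. Wild-type C57BL/6N mouse naive CD4+ T cells from spleen were activated on plate-bound anti-CD3e with soluble anti-CD28, and were pushed towards the T helper 9 (Th9) state, which makes interleukin 9, with IL-4, TGF-β1 and anti-IFN-γ. All 6 cultures had this mixture and were taken on day 3: 3 control libraries without sphingosylphosphorylcholine (SPC, d18:1), a lysophospholipid made of a sphingoid base and phosphocholine, and 3 libraries with 30 µM SPC. The sample titles number the libraries 1 to 3 in each group, and the series text describes 3 independent experiments. The labels name neither the age of the mice, nor the number of animals in an experiment, nor a solvent for the control. The cultures were measured in bulk, so that fewer cells of a type and less RNA per cell cannot be told apart.

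Cholesterol is built from acetyl-CoA by way of mevalonate, isopentenyl and farnesyl diphosphate, squalene and lanosterol. When sterol in the endoplasmic reticulum is low, Scap carries the SREBP transcription factors to the Golgi, where they are cut and released to turn on these genes. Insig proteins hold Scap back when sterol is high, and oxysterols then activate LXR, which turns on genes of cholesterol efflux. Activated T cells raise the SREBP program to supply membrane for division.

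Libraries held between 22002050 and 33049997 counts and between 14718 and 15114 genes with a count. Cd3e, Cd3d, Cd3g and Cd4 were expressed in all libraries, and the whole T cell and Th9 list summed to 3411 to 3463 CPM in control and 4100 to 4527 CPM with SPC. Most of that gap came from Il9, whose mean was 539 CPM in control and 1138 CPM with SPC, and its part in the results was not tested. Irf4 had means of 1387 and 1599 CPM and rose with the replicate block described below (adjusted p = 0.0184). The rest of the list was not called and was divided: Cd3d, Cd4, Lck and Batf had higher means with SPC. Zap70, Cd28, Cd3e and Cd3g had lower means, Zap70 without overlap (178 and 157 CPM). Of 7 B cell markers 1 could be tested and Ms4a1 was at 0 throughout, of 7 dendritic cell markers 2 could be tested with Clec9a and Cd209a at 0, and of 7 macrophage and monocyte markers 2 could be tested. The summed level of the dendritic cell list was 2.63 to 3.68 CPM in control and 4.16 to 6.34 CPM with SPC, most of it from Zbtb46, a gene that rose with the replicate block described below; the part of this list in the results was not tested. The B cell list summed to 3.49 to 3.73 CPM and 4.06 to 5.07 CPM, also not overlapping and also not tested for a part in the results, and the macrophage and monocyte list to 1.96 to 2.36 and 1.84 to 2.39 CPM. The members of the last list moved apart: Adgre1 fell with the replicate block, from a mean of 0.642 to 0.184 CPM (adjusted p = 0.0315), while Cd68 was not called and had means of 1.34 and 1.79 CPM. Their part in the results was not tested. CD8 T and NK cell markers summed to 4.07 to 4.36 CPM and 3.25 to 4.26 CPM, and those of granulocytes and mast cells to at most 0.0766 CPM.

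Genes of cholesterol synthesis were somewhat higher with SPC along most of the pathway. Levels are in CPM (a gene's count relative to the library's total, scaled by TMM), with the SD over 3 libraries where a mean is given. Fold changes are SPC over control. Each has the standard error of the comparison whose p is printed first after it, so standard errors are not alike between genes. The 19 synthesis enzymes together took 3451, 3544 and 3208 CPM in control libraries 1 to 3 and 4069, 4019 and 3644 CPM in the SPC libraries, so that every SPC library was above every control library. Within the same-numbered pairs this sum was 1.18-, 1.13- and 1.14-fold higher with SPC. Of the 28 genes 24 had a log2 fold change above 0, with a median of 0.15, against 50.5% and a median of 0.002 over all 12226 tested genes. Members and earlier results of these libraries were known when the list was chosen, so the shared direction is a description and carries no p.

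None of the 28 genes was called when libraries were compared by group alone (edgeR quasi-likelihood test, adjusted p under 0.05), where 0.327% of all tested genes were called higher and 0.155% lower. At an unadjusted p under 0.05, 8 members were higher and 1 lower, against 5.86% and 4.37% of all tested genes. DESeq2 called 2 members higher, Msmo1 and Mvd (1.47% of all genes), and limma-voom none (0.221%), each with 8 higher and 1 lower at an unadjusted p under 0.05. Same-numbered libraries deviated together across genes, and with the number as a block in the model (p-values from this fit are called blocked, and all named p-values are adjusted over all tested genes) 8 members rose and none fell, against 4.02% and 3.07% of all tested genes. These were Pmvk, Mvd, Fdps, Fdft1, Cyp51, Msmo1, Sc5d and Insig1. In 12 of 28 genes all 3 SPC libraries lay above all 3 control libraries, against 8.67% of all tested genes, and in 1, Mylip, they all lay below (7.80%). In 19 genes the SPC library was higher in all 3 pairs (21.8% of all tested genes) and in 1 it was lower in all 3 (22.0%).

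**Figure D1:**
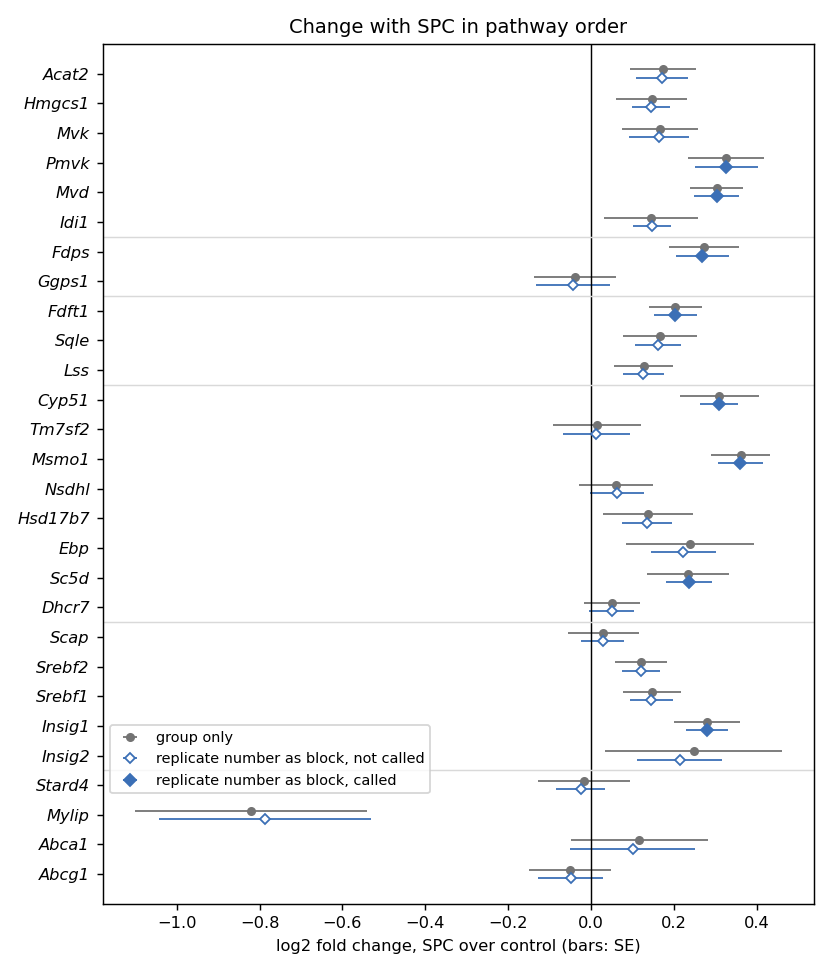
Log2 fold change of SPC over control (x axis) for the 28 genes in pathway order, with bars for the standard error, from the comparison by group alone (grey circles) and with the replicate number as a block (blue diamonds, filled where the adjusted p was under 0.05). Most enzymes lie between 0.1 and 0.4, the 8 filled diamonds are all right of 0, and Mylip stands alone on the left at -0.82.

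The mevalonate enzymes were above 0 in 6 of 6 cases, with log2 fold changes from 0.15 to 0.33, and 2 rose with the block. Mvd (chromosome 8, 122433601 to 122443422, minus strand, mm10), which decarboxylates mevalonate diphosphate to isopentenyl diphosphate, had 89.4, 94.1 and 93.9 CPM in the control libraries against 116, 112 and 115 in those with SPC. The groups did not overlap, and the gap between them was several times the spread within either. On the log2 scale the difference was 0.30 ± 0.06 (adjusted p = 0.0881, blocked 0.00662). Pmvk, the phosphomevalonate kinase, had 49.9, 52.1 and 58.5 CPM in the control libraries against 72.6, 62.0 and 66.6 in those with SPC (0.33 ± 0.09, adjusted p = 0.207, blocked 0.0265). SPC library 1 was highest, and the difference within pairs was 0.54, 0.25 and 0.19 on the log2 scale, larger in the first pair than in the others.

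The remaining 4 mevalonate enzymes were not called by either comparison. Hmgcs1, which makes HMG-CoA and is a classic SREBP target, had 586, 631 and 545 CPM in the control libraries against 636, 709.8 and 604 in those with SPC. Its groups overlapped, since control library 2 exceeded SPC library 3, but each pair had a difference of similar size (0.12, 0.17 and 0.15). The blocked p was 0.0882 (0.646 by group alone). Idi1, which interconverts isopentenyl and dimethylallyl diphosphate, behaved alike in this respect, with 570.3, 576 and 457 CPM in the control libraries against 615, 642 and 516 in those with SPC, pair differences of 0.11, 0.16 and 0.18 and a blocked p of 0.0895. In both genes the libraries numbered 3 were the lowest of their group. Mvk, the mevalonate kinase, had 28.2 ± 0.652 without and 31.6 ± 3.30 CPM after SPC (SD, n = 3 each; adjusted p = 0.621, and 0.225 with the block).

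Acat2, the cytosolic thiolase that starts the pathway, had 122 ± 3.18 without and 137 ± 12.0 CPM after SPC (adjusted p = 0.511, blocked 0.146). Its value is uncertain, because 45.9% of the 50-base windows of its longest transcript also occur in Acat3, which had 57.7 ± 2.35 without and 61.5 ± 12.0 CPM after SPC (adjusted p = 0.874). Windows shared with other genes made up 21.3% for Idi1, 11.7% for Fdps and 10.9% for Fdft1. In the annotation 26.7% of the exonic bases of Fdps also overlap Gm43738 on the same strand, so the split of reads between them is uncertain too. The same holds for Tm7sf2, with 12.1% shared with Vps51, which had 38.8 ± 2.00 without and 40.3 ± 5.66 CPM after SPC (adjusted p = 0.917). Genes on the opposite strand overlap 13.2% of the exonic bases of Scap, 12.1% of those of Hmgcs1 and 9.22% of those of Idi1. The part of these overlaps in the values was not tested.

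Of the 2 synthases that lengthen the prenyl chain, 1 rose. Fdps (chromosome 3, 89093588 to 89101959, minus strand), which makes farnesyl diphosphate, the last intermediate shared by sterols and other isoprenoids, had 298, 301 and 325 CPM in the control libraries against 412, 343 and 361 in those with SPC. All SPC libraries were above all control libraries, with SPC library 1 well above the other 2. On the log2 scale the difference was 0.27 ± 0.08 (adjusted p = 0.262, blocked 0.0292). Ggps1, which turns farnesyl into geranylgeranyl diphosphate and so leads away from sterols, had 38.2, 34.5 and 34.9 CPM in the control libraries against 30.6, 36.8 and 37.6 in those with SPC. It was lower in the first pair and slightly higher in the others (-0.32, 0.09 and 0.11), and was not called (adjusted p = 0.945, blocked 0.828). The difference between the changes of Fdps and Ggps1 was not tested.

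All 3 enzymes from farnesyl diphosphate to lanosterol were higher in every pair. Fdft1 (squalene synthase, chromosome 14, 63145150 to 63179578, minus strand), the first enzyme committed to sterols, had 153, 158 and 155 CPM in the control libraries against 185, 176 and 176 in those with SPC. The control values span less than 6 CPM and the SPC values lie above them, and the gene rose with the block (log2 fold change 0.20 ± 0.05, adjusted p = 0.0406; 0.268 by group alone). In the annotation 18.3% of its exonic bases overlap Ctsb on the opposite strand, and the strand setting of the counting is not known. Ctsb itself had 131 ± 6.31 without and 120.5 ± 7.69 CPM after SPC and was not called (adjusted p = 0.690, blocked 0.219). The part of this overlap in the Fdft1 value was not tested. Sqle, the squalene epoxidase, had 215 ± 9.10 without and 241 ± 26.6 CPM after SPC (adjusted p = 0.606, blocked 0.122). Lss, which closes the ring to lanosterol, had 209 ± 7.19 without and 228 ± 12.2 CPM after SPC (adjusted p = 0.618, blocked 0.164), and its groups did not overlap.

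Of the 8 enzymes that turn lanosterol into cholesterol 3 rose with the block. Msmo1 (chromosome 8, 64718139 to 64733792, minus strand), the C4-methyl sterol oxidase, had the largest positive log2 fold change of the 28 genes. It had 153, 159 and 149 CPM in the control libraries against 210.3, 194 and 188 in those with SPC, and every SPC library exceeded the highest control by a wide margin. On the log2 scale the difference was 0.36 ± 0.07 (adjusted p = 0.0727, blocked 0.00273). Cyp51 (chromosome 5, 4081145 to 4104746, minus strand), the lanosterol 14-alpha-demethylase, had 523, 525 and 448 CPM in the control libraries against 664, 640.1 and 551 in those with SPC. The libraries numbered 3 were lowest in both groups, while the pair differences were nearly equal (0.34, 0.29 and 0.30), and the adjusted p was 0.252 by group alone and 0.00256 with the block. Sc5d, the sterol C5-desaturase, had 94.7, 101 and 81.8 CPM in the control libraries against 106, 119 and 102 in those with SPC (log2 fold change 0.24 ± 0.06, adjusted p = 0.0282 with the block, and 0.456 without it).

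The other 5 late enzymes gave smaller or less even differences and were not called by either comparison. Ebp, a sterol isomerase, had 52.3, 48.0 and 42.4 CPM in the control libraries against 70.9, 50.7 and 46.6 in those with SPC, and SPC library 1 alone stood apart. Hsd17b7 and Nsdhl, which work beside Msmo1 in removing the C4 methyl groups, differed by 0.14 ± 0.06 and 0.06 ± 0.07 on the log2 scale (blocked adjusted p = 0.221 and 0.644). Dhcr7, which makes cholesterol in the last step of one branch, had 94.2 ± 0.411 without and 97.5 ± 4.45 CPM after SPC (0.05 ± 0.05, adjusted p = 0.658 with the block), and Tm7sf2, a sterol C14-reductase, 15.9 ± 1.19 without and 16.0 ± 1.43 CPM after SPC (0.01 ± 0.08, 0.948). Msmo1, Nsdhl and Hsd17b7 thus belong to one reaction sequence but only the first was called, a difference that was not itself tested.

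**Figure D2:**
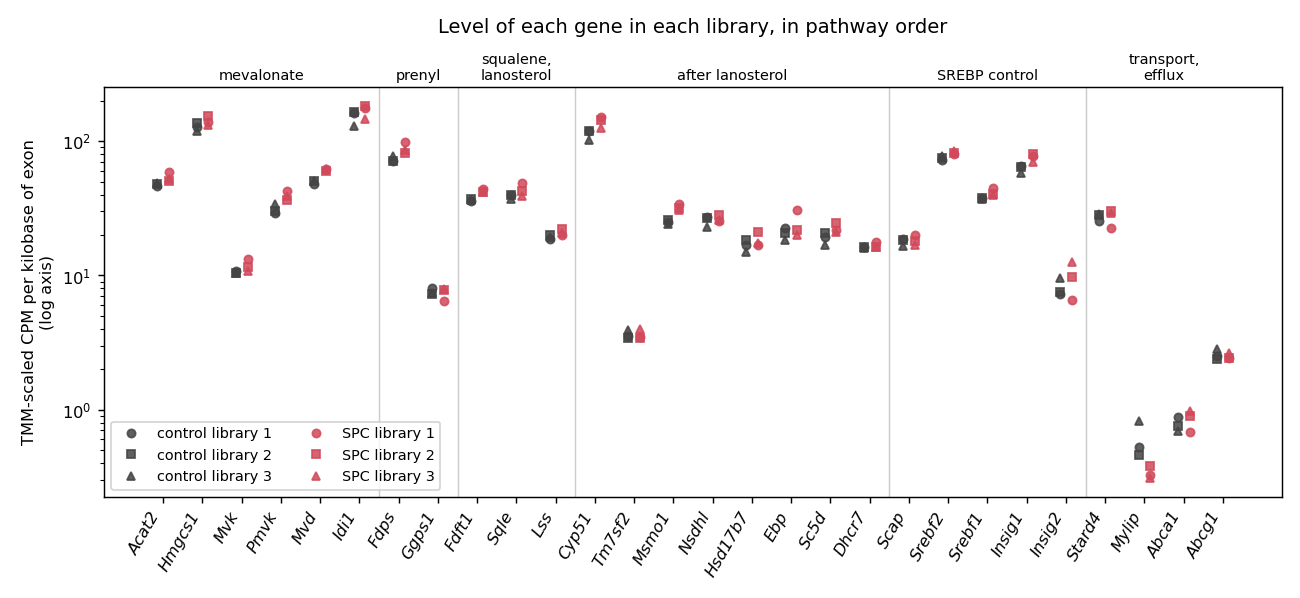
Level of each of the 28 genes in each library as TMM-scaled CPM per kilobase of annotated exon (y axis, log scale), in pathway order, with control in dark grey and SPC in red and a marker for each library number. Differences between genes span more than 2 powers of 10, from Mylip below 1 to Idi1 above 100, while the 2 groups differ little within a gene.

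Promoters are shown for Hmgcs1, the only member whose window held the 9-letter sterol element searched for, and for the 4 members of smallest blocked p with an entry in the RefSeq promoter table, since the control of these genes by SREBP is known to run through such windows. SREBP binds sterol regulatory elements and works with factors at CCAAT boxes (NF-Y) and GC boxes (Sp1). For 23 of the 28 members a window was searched, which leaves Fdps, Fdft1, Sqle, Stard4 and Abcg1. Windows run 5′ to 3′ on the gene's strand from 250 bases before to 50 after the start site (RefSeq, GRCm38.p6). Capitals mark TCACNCCAC, its form without the first letter, CACNCCAC, and CCAAT, on either strand. The windows lie at chr13:119690101-119690400 (plus strand) for Hmgcs1, chr8:122443373-122443672 (minus) for Mvd, chr5:4104648-4104947 (minus) for Cyp51, chr8:64733529-64733828 (minus) for Msmo1 and chr5:28071162-28071461 (plus) for Insig1.
Hmgcs1: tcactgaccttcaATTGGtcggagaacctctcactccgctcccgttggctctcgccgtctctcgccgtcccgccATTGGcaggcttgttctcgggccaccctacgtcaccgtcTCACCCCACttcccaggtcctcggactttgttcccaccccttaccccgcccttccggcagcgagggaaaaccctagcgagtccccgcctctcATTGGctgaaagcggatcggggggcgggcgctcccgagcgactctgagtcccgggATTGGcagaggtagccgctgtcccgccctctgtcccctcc
Mvd: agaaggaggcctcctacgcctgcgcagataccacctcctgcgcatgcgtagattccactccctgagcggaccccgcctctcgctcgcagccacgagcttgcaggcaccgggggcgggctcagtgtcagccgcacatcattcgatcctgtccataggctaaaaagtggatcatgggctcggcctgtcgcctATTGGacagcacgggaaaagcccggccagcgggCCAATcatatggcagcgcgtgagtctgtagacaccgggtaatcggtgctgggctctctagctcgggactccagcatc
Cyp51: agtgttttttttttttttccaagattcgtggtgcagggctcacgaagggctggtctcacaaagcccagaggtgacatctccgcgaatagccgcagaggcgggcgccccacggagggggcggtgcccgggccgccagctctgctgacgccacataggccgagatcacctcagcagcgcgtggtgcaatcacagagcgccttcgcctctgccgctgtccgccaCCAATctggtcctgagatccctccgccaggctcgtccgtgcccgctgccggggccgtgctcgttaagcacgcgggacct
Msmo1: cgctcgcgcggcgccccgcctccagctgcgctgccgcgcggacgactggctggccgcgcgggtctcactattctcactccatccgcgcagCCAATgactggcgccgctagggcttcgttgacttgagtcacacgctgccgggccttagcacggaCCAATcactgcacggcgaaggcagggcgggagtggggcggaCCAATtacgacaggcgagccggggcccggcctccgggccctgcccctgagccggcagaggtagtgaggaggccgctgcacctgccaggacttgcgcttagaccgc
Insig1: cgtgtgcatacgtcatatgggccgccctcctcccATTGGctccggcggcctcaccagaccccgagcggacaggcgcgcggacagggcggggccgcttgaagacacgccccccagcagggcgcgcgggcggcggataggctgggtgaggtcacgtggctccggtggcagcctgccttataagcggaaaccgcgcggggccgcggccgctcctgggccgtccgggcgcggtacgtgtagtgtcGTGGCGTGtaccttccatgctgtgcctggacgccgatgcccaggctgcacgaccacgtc

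The 9-letter element occurred in 1 of the 23 genes, Hmgcs1, at -137 to -129 from the start site, against 1.36% of the 9327 tested genes in the table. Its 8-letter form without the first letter occurred in 3 genes (13.0%, against 7.60% of tested genes): Hmgcs1, Acat2 and Insig1, in the last at -9 to -2. CCAAT, in either orientation, was present in 20 of 23 genes (87.0%, against 43.2% of tested genes), with 4 copies in the Hmgcs1 window, 3 in that of Msmo1, 2 in that of Mvd and 1 each in those of Cyp51 and Insig1. GGGCGG was present in 21 of 23 (91.3%, against 69.4%). Some genes have more than 1 window and so more places for a match, and a match is only a run of letters: binding was not measured here. Elements that differ from these letters, or that lie outside the windows, were not searched for. A window without a match is thus not shown to lack a sterol element.

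Among the 5 genes that control SREBP, Insig1 rose with the block. Insig1 (chromosome 5, 28071363 to 28078662, plus strand), which retains Scap and is itself an SREBP target, had 203, 197 and 179 CPM in the control libraries against 241, 246 and 217 in those with SPC. The lowest SPC library exceeded the highest control library, and the difference was even over the pairs (0.25, 0.32 and 0.27). On the log2 scale the difference was 0.28 ± 0.08 (adjusted p = 0.222, blocked 0.00653). Insig2, its relative, which is not known as an SREBP target, had 25.4, 26.1 and 33.3 CPM in the control libraries against 22.9, 34.0 and 44.0 in those with SPC. It was lower in the first pair and higher in the others (-0.15, 0.38 and 0.40), its libraries numbered 3 were highest in both groups, and it was not called (adjusted p = 0.789, blocked 0.259).

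The factors themselves had smaller log2 fold changes than Insig1, a difference that was not tested. Srebf2, which encodes the SREBP mainly responsible for sterol genes, had 525, 541 and 561 CPM in the control libraries against 573, 590.3 and 606 in those with SPC, without overlap and with pair differences of 0.13, 0.13 and 0.11. This did not pass the test (log2 fold change 0.12 ± 0.06, adjusted p = 0.595, blocked 0.150). Srebf1, whose products act more on fatty acid genes, had 212 ± 1.48 without and 235 ± 14.1 CPM after SPC, also without overlap (adjusted p = 0.531, blocked 0.133). Scap, the escort protein, had 133 ± 8.07 without and 136 ± 11.7 CPM after SPC (adjusted p = 0.948, blocked 0.806).

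None of the 4 genes of sterol transport and efflux was called. Mylip, an LXR target whose product marks lipoprotein receptors for degradation, had 1.71, 1.49 and 2.68 CPM in the control libraries against 1.06, 1.23 and 1.00 in those with SPC, from counts of 50, 45 and 59 in control and 35, 32 and 23 with SPC. All SPC libraries were below all control libraries, with pair differences of -0.65, -0.27 and -1.36. On the log2 scale the difference was -0.82 ± 0.28 (adjusted p = 0.331, blocked 0.0992), and it is the least abundant of the 28 genes. It was -0.54 without control library 3, and -0.49 in the blocked fit without both libraries numbered 3. Abca1, a cholesterol exporter and LXR target, had 9.13, 7.86 and 7.18 CPM in the control libraries against 7.02, 9.23 and 10.1 in those with SPC, lower in the first pair and higher in the others (-0.38, 0.23 and 0.49; adjusted p = 0.760 with the block). Abcg1, the other exporter, had 18.9 ± 1.69 without and 18.2 ± 0.892 CPM after SPC (blocked adjusted p = 0.774), and Stard4, a carrier of cholesterol in the cytosol that SREBP is known to turn on, had 154 ± 10.0 without and 152 ± 22.0 CPM after SPC (0.858).

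Levels per kilobase of annotated exon differed far more between genes than between groups. In control, Idi1 was at 152 ± 19.2, Hmgcs1 at 128 ± 9.38, Cyp51 at 113 ± 9.94, Srebf2 at 75.5 ± 2.56 and Fdps at 73.2 ± 3.50 CPM per kilobase. In this order Idi1 and Hmgcs1, Hmgcs1 and Cyp51, and Srebf2 and Fdps lay within 2 SD of each other, by the larger SD of the pair, and Cyp51 and Srebf2 did not. Both genes of a pair were read in the same libraries, so this is not a test of their order. These 5 were also the highest when the mean transcript length was used, where Cyp51 passed Hmgcs1 and Fdps passed Srebf2. The values themselves depend on the length: with the mean transcript length Idi1 stood at 456, Cyp51 at 336, Hmgcs1 at 267, Dhcr7 at 73.2 and Scap at 129, the last from 17.9 per kilobase of all exons. Late enzymes such as Dhcr7 (16.2 ± 0.0707) and Tm7sf2 (3.61 ± 0.271) were lower, as were Mvk (10.5 ± 0.244) and Ggps1 (7.60 ± 0.437). The lowest of the 28 genes were Abcg1 at 2.59 ± 0.232, Abca1 at 0.778 ± 0.0955 and Mylip at 0.607 ± 0.196 CPM per kilobase. Idi1 was at percentile 98.1 of all tested genes with a length, and Mylip at percentile 15.4.

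The same-numbered libraries are also compared pair by pair, although the labels do not say that a shared number marks a shared experiment. In the pair numbered 1 the median difference over the 28 genes was 0.12 on the log2 scale with 20 genes above 0, in the pair numbered 2 it was 0.15 with 26, and in the pair numbered 3 it was 0.14 with 26. The medians over all tested genes were within 0.003 of 0. The first pair held the largest difference of the 3 for 11 of the 19 enzymes, led by Pmvk, Fdps, Msmo1 and Ebp. It held the lowest difference for the remaining enzymes, Hmgcs1, Idi1, Ggps1, Lss, Tm7sf2, Nsdhl, Hsd17b7 and Sc5d. It was also lowest for Insig1, Insig2, Stard4 and Abca1. SPC library 1 was the most deeply sequenced (33049997 counts), and the part of depth in this was not tested. Without the libraries numbered 1 the blocked comparison called 16 members higher (9.14% of all tested genes). It called 5 higher without those numbered 2 (2.95%) and 5 without those numbered 3 (2.74%). Mylip was called lower only without number 2 (adjusted p = 0.0265). The share of all tested genes called lower in that fit is not given here, so this call is described singly. Pmvk, Mvd, Fdps, Cyp51 and Msmo1 were called in all 3 of these fits. The fits are small and share libraries with each other, so a call in all 3 is not independent support. Fdft1 lost its call without number 2 or number 3 (adjusted p = 0.121 and 0.184), as did Sc5d (0.126 and 0.252) and Insig1 (0.0593 and 0.0513).

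**Figure D3:**
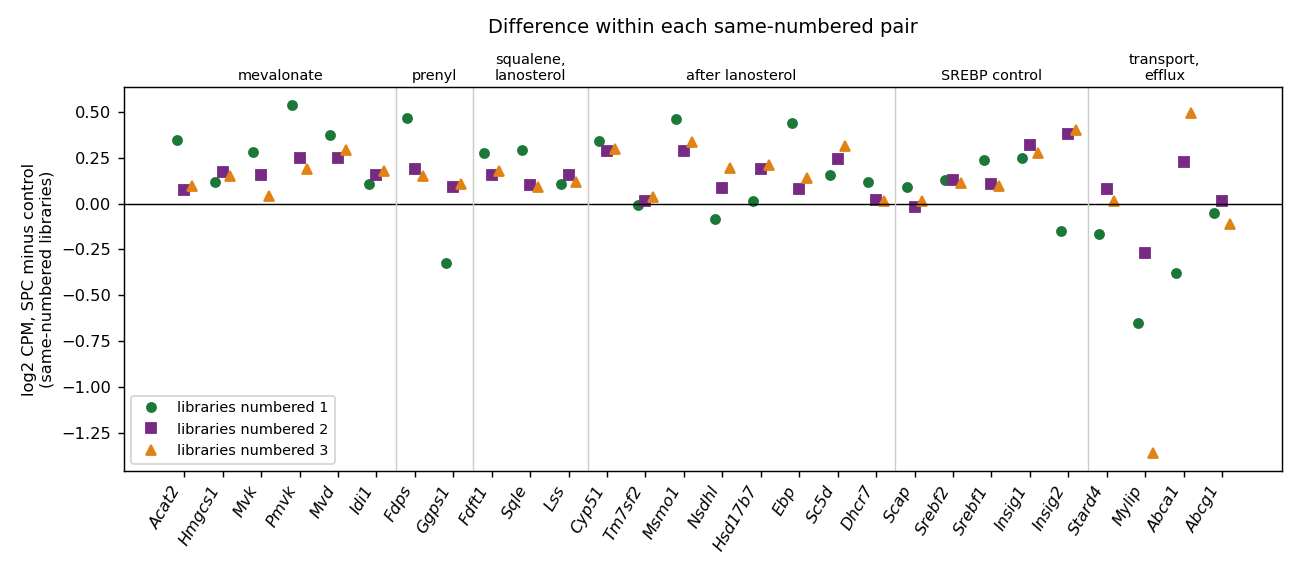
Difference in log2 CPM between the SPC and the control library of the same number (y axis) for the 28 genes in pathway order, with a colour and marker for each number. The 3 markers of Mvd, Cyp51 and Insig1 lie close together above 0, while those of Pmvk, Fdps and Ebp are spread by a higher first pair and those of Ggps1, Insig2 and Abca1 lie on both sides of 0.

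How much of the variation of a gene went with SPC and how much with the library number is a description of 6 values per gene. SPC took the largest share of the sum of squares in 14 genes, the number in 12 and the remainder in 2. For Mvd the shares of SPC and number were 96.5% and 0.585%, for Fdft1 92.7% and 1.02%, and for Msmo1 91.4% and 4.71%. In contrast, Idi1 had 20.3% and 78.9%, Hmgcs1 38.7% and 60.4%, and Scap 2.50% and 90.7%. The median share of SPC was 42.9% over the 28 genes and 16.0% over all tested genes, and that of the number 38.3% and 53.3%.

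**Figure D4:**
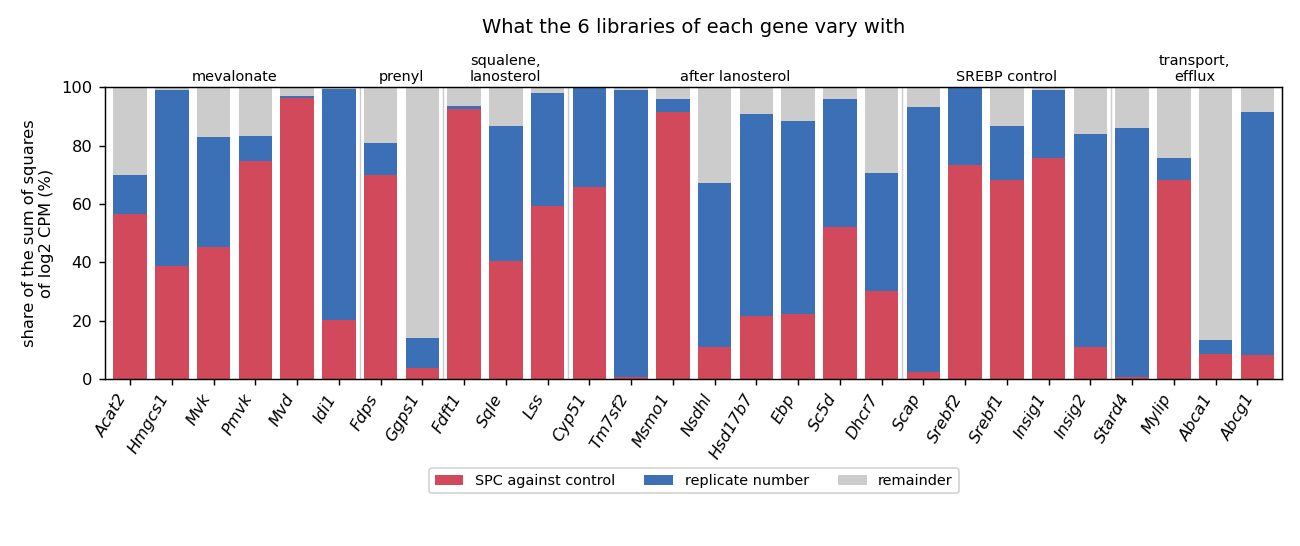
Share of the sum of squares of log2 CPM (y axis, percent) that went with SPC against control (red), with the replicate number (blue) and with neither (grey), for the 28 genes in pathway order. Red fills most of the bars of Mvd, Fdft1 and Msmo1, blue most of those of Tm7sf2, Scap, Stard4 and Idi1, and grey most of those of Ggps1 and Abca1.

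Genes around the pathway were divided in direction. Of 57 further genes in 5 lists 52 could be tested, 25 had a log2 fold change above 0, and their median was -0.004. None was called by group alone, where 3 were higher and 3 lower at an unadjusted p under 0.05 (5.86% and 4.37% of all tested genes). With the block 2 rose and 2 fell, shares close to the 4.02% and 3.07% of all tested genes, so the 4 genes are described singly and say nothing about their lists. Rnf145, a ubiquitin ligase of the endoplasmic reticulum known to act on Scap, fell, with 127, 119.7 and 125 CPM in the control libraries against 98.5, 97.0 and 90.8 in those with SPC (log2 fold change -0.38 ± 0.05, adjusted p = 0.00226 with the block, 0.0577 without). All SPC libraries were below all control libraries. Erlin1, a membrane protein that takes part in degradation at the endoplasmic reticulum, also fell with the block, with 27.8 ± 1.71 without and 22.5 ± 1.76 CPM after SPC (blocked adjusted p = 0.0250, 0.254 by group alone). Ube2g2, a ubiquitin-conjugating enzyme that serves such degradation, was not called, at 0.11 on the log2 scale (blocked adjusted p = 0.334).

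Rxra, the retinoid receptor that pairs with LXR and with other nuclear receptors, rose with the block, with 265, 236 and 204 CPM in the control libraries against 315, 305 and 267 in those with SPC (log2 fold change 0.33 ± 0.05, adjusted p = 0.00302; 0.288 by group alone). Nr1h2, which encodes LXR-beta, had 49.9 ± 5.87 without and 52.7 ± 2.76 CPM after SPC (blocked adjusted p = 0.522), and Rxrb, a relative of Rxra, and Lpcat3, an LXR target that remodels phospholipids, differed by 0.07 and -0.07 (blocked adjusted p = 0.573 and 0.583). The 5 genes too low to test were Nr1h3, which encodes LXR-alpha, Cyp7b1, Cyp27a1, Cyp46a1 and Abcg4. Slc25a1, the mitochondrial citrate carrier that supplies carbon for acetyl-CoA, rose with the block, with 92.9 ± 7.87 without and 109.8 ± 7.34 CPM after SPC (adjusted p = 0.0422, and 0.356 by group alone). Of the other 5 genes of acetyl-CoA supply, Cs (citrate synthase), Acat1 (the mitochondrial thiolase) and Acss2 (which activates acetate) had log2 fold changes of -0.11, -0.05 and 0.09, with blocked p of 0.229, 0.644 and 0.646.

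Among the 16 tested genes of cholesterol esters, uptake and transport 5 were above 0 and none was called by either comparison. Soat1, which esterifies cholesterol for storage, had 95.6 ± 6.83 without and 82.8 ± 2.78 CPM after SPC (log2 fold change -0.20 ± 0.06, adjusted p = 0.0583 with the block, 0.374 by group alone). Gramd1a, a sterol carrier at contacts with the plasma membrane, had 111 ± 13.8 without and 126 ± 11.2 CPM after SPC (0.19 ± 0.05, 0.0597 with the block, 0.627 by group alone). Soat2, the second such esterifying enzyme, had 8.47 ± 3.80 without and 10.6 ± 4.12 CPM after SPC (0.34 ± 0.10, 0.0751 with the block). By group alone Soat2 was at 0.33 ± 0.34 (adjusted p = 0.830). Osbpl9, a lipid transfer protein, differed by -0.16 ± 0.07 (0.202 with the block, 0.594 by group alone). Of the 15 genes that use prenyl groups 9 were above 0 with a median of 0.01, and none was called. Rce1, which trims prenylated proteins, had the smallest p of these, with 20.0 ± 0.931 without and 23.9 ± 2.35 CPM after SPC (blocked adjusted p = 0.0833, 0.392 by group alone). Next were Chml and Chm, which present Rab proteins for prenylation, and Pdss1, which makes the ubiquinone tail, at -0.27, -0.25 and -0.19 on the log2 scale (blocked adjusted p = 0.198, 0.216 and 0.214).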

How the data were processed

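RNA sequencing was done on 6 libraries, 3 control and 3 SPC, made with a directional kit from total RNA, per the labels' protocols. The values are whole-number counts for each gene symbol, as deposited by the authors. TopHat and the build mm10 are named in the submitters' processing notes; which counter, annotation and strand setting were used is not stated there. Counts were tested in R 4.3.3 with edgeR 4.0.16 (quasi-likelihood F test, robust, TMM scaling, filterByExpr with minimum count 10 and total 15, group as the single term), with Benjamini-Hochberg adjustment over 12226 genes. The standard error is the log2 fold change over the square root of F. The deviations of same-numbered libraries from their group means correlated at 0.413, 0.208 and 0.508 across genes, above the limit of 0.1. Those of libraries with unlike numbers correlated at -0.492 to 0.0742. The numbers are therefore taken to pair the libraries, which the labels do not state. The fit with the replicate number as a block is given as an alternative, also where it changes no call. No 2 libraries agreed within counting noise (chi-square per degree of freedom 4.99 to 45.7). By this measure control library 1 was nearer to SPC library 2 (11.9) than to SPC library 1 (24.7). Control libraries 2 and 3 were nearest to the SPC library of their own number (10.5 and 12.1). The libraries numbered 3 had the fewest counts of their group (22002050 and 22715292). The part of depth in what went with the number was not tested. By group alone, with 3 against 3, an exact permutation p cannot go below 0.10. For exchange within 3 pairs that floor is higher. P-values by group alone measure the spread between these cultures, and blocked p-values the spread left after the number is removed.

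The members and lists were chosen with earlier results of these data known. The text names all 28 members and, of 5 further lists, the genes called in either fit and the 4 of each with the smallest blocked p, of which 1 is not reported here; the 5 untested genes were named outside this rule, after their values were seen. Some genes of the pathway are not analysed here. Lengths and coordinates are from GENCODE M21 (GRCm38), matched by symbol. Pair differences use log2 CPM with a prior count of 2. DESeq2 1.42.0 and limma 3.58.1 (voom), 2 scalings, 2 filters, non-robust dispersion and leaving out libraries were alternatives. The edgeR fits with and without the block were also run on simulated counts. Those counts held no effect of the library number, so that run cannot check the pairing.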

Additional observations from a re-analysis of the deposited data

How the results depend on the processing

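Leaving out each library in turn gave no member called in either direction by group alone, a median log2 fold change of the members between 0.13 and 0.19, and between 6 and 66 genes called of all tested (59 with all libraries). The lowest count came without control library 2 and, equally, without SPC library 2. With the replicate number as a block, 8 members were called higher and 866 genes in all, and leaving out both libraries of a number gave 5 to 16 members higher, 0 to 1 lower and 563 to 2112 genes in all. DESeq2 called 2 members and 282 genes, limma-voom 38 genes, and the fit with no filter on low counts 147 genes. Other scalings, filters and dispersion settings left the 0 calls among members, 24 members above 0 and a median between 0.15 and 0.16. Over the 6 leave-outs the sign turned, with no call, for Ggps1 (-0.0934 to 0.0501), Tm7sf2 (-0.0590 to 0.0809), Stard4 (-0.0912 to 0.0990), Nsdhl (-0.00993 to 0.114), Scap (-0.0390 to 0.0851) and Abcg1 (-0.105 to 0.0257, all log2). With all libraries, each of these genes had a log2 fold change by group alone that was smaller than its standard error. The largest was that of Nsdhl, at 0.06 ± 0.09. Each leave-out fit also had fewer libraries, and the cause of the turns was not tested.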
